A study of Mus musculus with 8 samples.

Results

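Oxidative phosphorylation genes were examined in chromatin accessibility maps of natural killer (NK) cells from the spleens of mice with 2 forms of heat shock factor 1 (HSF1). The set was chosen by gene symbol. It held every nuclear protein-coding gene whose symbol starts with Nduf, Uqcr, Cox4, Cox5, Cox6, Cox7, Cox8 or Atp5, plus Sdha, Sdhb, Sdhc, Sdhd and Cyc1. This gave 97 of the 21887 protein-coding genes of the mouse RefSeq table of build GRCm38.p6. By role they were 37 subunits of complex I, 8 complex I assembly factors, 4 subunits of complex II, 9 of complex III, 11 of complex IV and 17 of complex V. The remaining members were 7 complex IV isoforms known mainly from other tissues, 2 copies of Ndufb4 (Ndufb4b and Ndufb4c), the NDUFA4-like gene Ndufa4l2 and the supercomplex factor Cox7a2l. Symbols are those of the table, which keeps older names such as Atp5a1 and Atp5b for the subunits alpha and beta of ATP synthase. Atpif1, the inhibitor of ATP synthase, has a symbol outside the rule.

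The assay was ATAC-seq: a transposase cuts accessible DNA and tags the fragments for sequencing. The WT group was 4 mice wild-type for HSF1. The MUT group was 4 mice with HSF1 serines 303 and 307 changed to alanine (S303/7A), which the study's design text describes as HSF1-enhanced. All 8 mice were at steady state, with no treatment. NK cells were enriched with DX5 beads and sorted as CD49b+ CD3e- cells, and 200000 cells per animal were used. Each mouse is 1 replicate, named here by its number in the labels (WT 4, 5, 6 and 7, and MUT 26, 27, 28 and 29). The sources used here give no strain, age or sex, and the genotype cannot be told apart from any other difference between these groups of mice.

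The respiratory chain passes electrons from NADH through complex I, or from succinate through complex II, to coenzyme Q, then through complex III and cytochrome c to complex IV, which reduces oxygen. Complexes I, III and IV pump protons across the inner mitochondrial membrane, and complex V uses the returning protons to make ATP. Most subunits are encoded in the nucleus, and several transcription factors, among them NRF1, the ETS factor GABP and YY1, are known to bind promoters of these genes. HSF1 is the main transcription factor of the heat shock response, and its serines 303 and 307 are phosphorylation sites known to restrain it. NK cells raise oxidative phosphorylation when cytokines activate them.

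The deposited data were 1 list of peaks per library. They held 42695 to 46102 peaks in WT and 44333 to 49627 in MUT, with MUT 27 the longest list. The lists hold no read counts, so depth is unknown, and a missing peak is one that was not called. In cells measured in bulk, fewer cells with an open site and a less open site in each cell cannot be told apart. MUT 29 had the narrowest peaks at gene ends, with a median of 723 bp against 777 to 814 bp in the other 7 libraries. Peaks lay at a gene end in all 8 libraries for 8 of 8 NK cell markers. This held for 3 of 5 T cell markers (Cd3d, Cd3e and Cd3g) and 0 of 5 B cell markers. It also held for 2 of 5 myeloid markers (Cd68 and Itgax) and 3 of 5 erythroid and platelet markers (Klf1, Epor and Itga2b). In no library was there such a peak for, among others, Cd8a, Csf1r, Lyz2, Adgre1 and Pf4.

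The promoters of these genes are shown first, because most of these genes had a peak there in every library. RefSeq promoter windows, from 250 bases before to 50 after the annotated start, were matched for 78 of the 97 genes. The windows printed here stop 30 bases after the start and run 5′ to 3′ on the gene's own strand. Capitals mark matches, on either strand, to the NRF1 letters GCATGCGC or their core TGCGCA, to the ETS core CGGAAG, to the YY1 core AAGATGG and to the heat shock element GAANNTTC. The first set holds Sdhb, the iron-sulfur subunit of complex II, at chr4:140961021-140961300 on the plus strand. Next come Cox6a1, a subunit of complex IV, at chr5:115348929-115349208 on the minus strand, and Uqcr11, a small subunit of complex III, at chr10:80406792-80407071 on the minus strand. These 3 are shown because each carries both the NRF1 letters and the ETS letters CCGGAAG.
Sdhb: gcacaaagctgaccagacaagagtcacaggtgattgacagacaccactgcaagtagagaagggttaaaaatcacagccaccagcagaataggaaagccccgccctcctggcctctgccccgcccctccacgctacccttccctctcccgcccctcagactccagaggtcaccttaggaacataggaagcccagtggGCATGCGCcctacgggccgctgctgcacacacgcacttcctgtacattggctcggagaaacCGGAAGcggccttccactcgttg
Cox6a1: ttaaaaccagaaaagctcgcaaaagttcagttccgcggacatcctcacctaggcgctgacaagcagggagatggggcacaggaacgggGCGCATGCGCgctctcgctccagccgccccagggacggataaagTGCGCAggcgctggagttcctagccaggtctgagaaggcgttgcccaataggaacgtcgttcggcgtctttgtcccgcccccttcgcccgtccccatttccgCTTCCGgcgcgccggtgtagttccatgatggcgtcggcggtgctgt
Uqcr11: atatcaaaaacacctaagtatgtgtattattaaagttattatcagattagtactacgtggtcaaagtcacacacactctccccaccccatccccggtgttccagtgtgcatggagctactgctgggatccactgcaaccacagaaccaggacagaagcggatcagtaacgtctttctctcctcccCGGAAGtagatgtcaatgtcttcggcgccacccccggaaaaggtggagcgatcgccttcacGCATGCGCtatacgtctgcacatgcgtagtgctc

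The second set holds the genes on which the comparison of genotypes and of occupancy turns. Ndufa9, a complex I subunit, lies at chr6:126849115-126849394 on the minus strand. Cox6b2, a complex IV isoform known from testis, lies at chr7:4753065-4753344 on the minus strand. Cox7b, a complex IV subunit encoded on the X chromosome, lies at chrX:106015450-106015729 on the plus strand.
Ndufa9: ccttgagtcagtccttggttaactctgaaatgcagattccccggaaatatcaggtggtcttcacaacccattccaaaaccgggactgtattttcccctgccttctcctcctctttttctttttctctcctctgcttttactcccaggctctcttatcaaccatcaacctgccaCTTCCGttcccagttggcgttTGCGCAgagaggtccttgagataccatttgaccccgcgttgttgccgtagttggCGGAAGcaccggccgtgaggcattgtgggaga
Cox6b2: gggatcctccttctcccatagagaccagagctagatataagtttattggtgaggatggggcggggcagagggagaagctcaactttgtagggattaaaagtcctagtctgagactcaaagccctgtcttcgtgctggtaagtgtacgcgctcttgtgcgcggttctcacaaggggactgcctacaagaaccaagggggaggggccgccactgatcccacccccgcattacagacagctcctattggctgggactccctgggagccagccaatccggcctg
Cox7b: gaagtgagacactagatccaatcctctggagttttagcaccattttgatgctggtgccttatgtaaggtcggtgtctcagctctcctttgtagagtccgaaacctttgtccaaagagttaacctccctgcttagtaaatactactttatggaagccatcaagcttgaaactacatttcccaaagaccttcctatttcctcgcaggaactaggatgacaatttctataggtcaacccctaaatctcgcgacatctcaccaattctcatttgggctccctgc

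Ndufa9 holds the NRF1 core once and the ETS core at 2 places in these bases, and its YY1 letters lie in the part of the window after those printed. The printed bases of Cox6b2 and Cox7b hold none of the marked motifs.

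Occupancy of these genes was near complete in both genotypes. A peak within 1 kb of either gene end (a gene-end peak) was called in all 8 libraries for 86 of the 97 genes (88.7%), against 50.6% of all protein-coding genes. The cytosolic ribosomal protein genes (76 of 85, 89.4%) and the proteasome subunit genes (37 of 40, 92.5%), sets of constantly used genes taken for comparison, had similar shares. Of the 78 genes with a RefSeq promoter window, 73 (93.6%) had a peak on it in all 8 libraries, against 49.6% of the 17492 windows in the table. Counting either kind of peak, 88 of the 97 genes were occupied in every mouse. These shares are descriptions and were not tested.

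Every complex of the chain was occupied, while most isoforms of other tissues were not. All 37 complex I subunits had a gene-end peak in every library, as did all 8 assembly factors, all 4 complex II subunits and all 9 complex III subunits. In complex V it was 16 of 17, and in complex IV 9 of 11. Atp5d, the delta subunit of ATP synthase, and Cox5a, a core-contacting subunit of complex IV, lacked a gene-end peak but had a peak on the promoter window in 8 of 8 libraries. At Cox5a the linked region lay inside the RefSeq gene span, 4092.5 bp from its end, with a linked length of 819 to 864 bp in all 8 libraries.

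Cox7b was the exception among the subunits of the assembled chain. No library had a peak at its gene ends, none on its promoter window and none linked to it. Its printed promoter holds neither the NRF1, the ETS nor the YY1 core, and its neighbour with the nearest gene end, Magt1, lies 3898 bp away. Such windows were common among occupied genes too. The letters GCATGCGC, CCGGAAG and AAGATGGCG were all absent from 41 of the 73 windows with a peak in all 8 libraries. Whether motifs bear on the missing peak was not tested. A promoter window without a called peak was seen in 8 of 8 libraries for 3 other matched genes, Ndufb4b, Cox7b2 and Cox8b.

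Among the 7 isoforms of other tissues, Cox7a1, known from heart and skeletal muscle, and Cox6b2 had a gene-end peak in all 8 libraries. Cox4i2 (known from lung), Cox6a2 and Cox8b (heart and muscle), Cox7b2 and Cox8c (testis) had none in any library. The Ndufb4 copies Ndufb4b and Ndufb4c had none either. Ndufa4l2, a gene known to be induced in hypoxia, had a gene-end peak of 233 bp in WT 7 and in no other library. Cox7a1 gene-end peaks measured 524, 500, 447 and 392 bp in WT and 403, 518, 477 and 492 bp in MUT, so the groups overlapped.

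The score that the authors gave each peak was turned into a percentile within its own list, to rank genes against each other and not to compare genotypes. The median of the gene means was 89.6 for the oxidative phosphorylation genes, 85.6 for ribosomal protein genes, 86.4 for proteasome genes and 77.9 for all genes with a gene-end peak in every library. A mean percentile of at least 90 was reached by 41 of the 86 genes (47.7%), against 23.5% of all genes. A mean under 50 was found for 5 of the 86 (5.81%), against 14.6% of all genes.

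The highest-ranked peaks came from different complexes. Ndufab1, which encodes the mitochondrial acyl carrier protein of complex I, averaged 99.9. Ndufa6 of complex I averaged 99.6, Cox7c of complex IV 99.5, Atp5e, the epsilon subunit of ATP synthase, 99.3, and the assembly factor Ndufaf7, a methyltransferase, 98.8. The core complex I subunit Ndufv1, which binds NADH, followed at 98.0.

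The lowest-ranked gene-end peaks were those of Cox7a2 (39.8), Ndufa10 (40.8), Ndufaf3 (44.0), Cox6b2 (45.6) and Ndufb10 (45.9). For Cox7a2, a complex IV subunit, the window used matters. Its gene-end peak lay near the far end of the gene (chr9:79755941-79756411), while the peak over its promoter window lay inside the long RefSeq gene span (chr9:79759413-79760111) and had a mean percentile of 91.3. An end of Ndufaf3, an assembly factor, lies 10 bp from one of Impdh2.

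**Figure D1:**
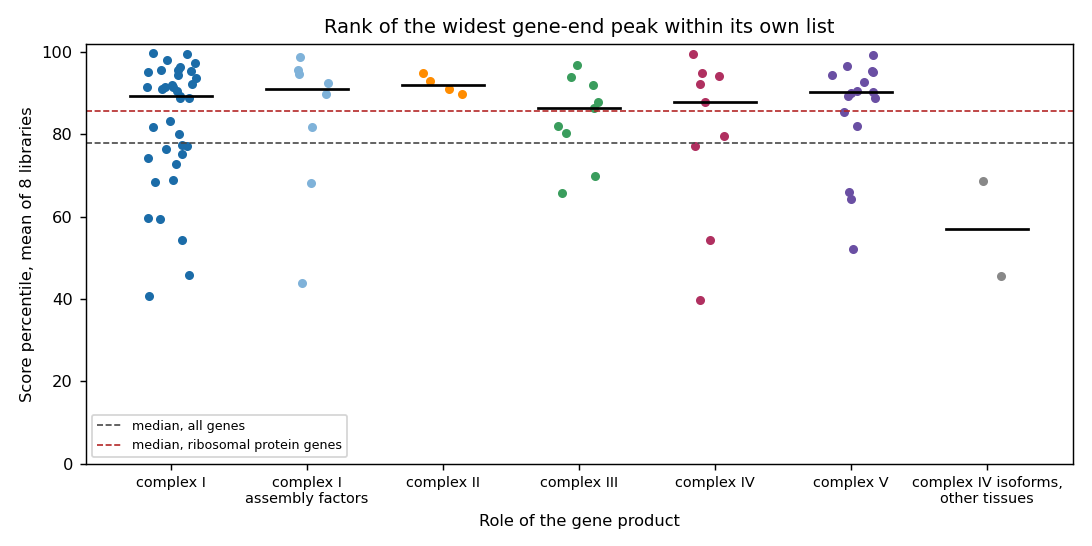
Mean percentile over 8 libraries of the widest gene-end peak, 1 point per gene, for 85 genes in 7 roles (Cox7a2l is not drawn). Black bars are medians of each role, and dashed lines are the medians of all genes (77.9) and of ribosomal protein genes (85.6). The medians of complexes I to V lie between 86.4 and 92.1, and the 2 occupied isoforms of other tissues lie lower.

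By role, the median percentile was 89.3 in complex I, 91.2 for the assembly factors, 92.1 in complex II, 86.4 in complex III, 87.9 in complex IV and 90.2 in complex V. The 4 complex II genes, which encode succinate dehydrogenase, were the most alike, with Sdhc at 89.7, Sdhb at 91.2, Sdha at 93.0 and Sdhd at 95.0. The spread was wide within complex I, from 40.8 for Ndufa10 to 99.9 for Ndufab1. Of the 5 lowest-ranked genes, Ndufa10 and Ndufb10 were complex I subunits.

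Peaks on the promoter window were centred close to the start. For the 68 genes with 1 RefSeq promoter window and a peak on it in all 8 libraries, the median centre of that peak was 12.3 bp after the start, with median edges at -332 and +364 bp. The centre lay within 200 bp of the start in 60 of 68 (88.2%), against 78.6% of 6866 genes. Uqcrh, the hinge subunit of complex III, and Ndufa11 of complex I lay farthest upstream, with centres at -646 and -355 bp. Both are broad peaks that also reach a neighbouring gene, Lrrc41 at 199 bp from Uqcrh and Vmac at 63 bp from Ndufa11.

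Shared gene ends were common. The end of another protein-coding gene lay within 1 kb for 55 of the 97 genes (56.7%), against 24.8% of all genes, and within 250 bp for 38 (39.2%), against 14.0%. Among genes with a gene-end peak in all libraries the shares were 51 of 86 (59.3%) and 37.6%. Close pairs included Atp5md and Taf5 (8 bp), Ndufs1 and Eef1b2 (9 bp), Ndufv2 and Ankrd12 (9 bp), Ndufa7 and the ribosomal protein gene Rps28 (10 bp), and Sdha and Ccdc127 (77 bp). Atp5j, which encodes coupling factor 6 of ATP synthase, lies 966 bp from Gabpa, the gene of the DNA-binding subunit of GABP, and 1 broad peak of 1258 to 1490 bp lay at its end in all 8 libraries.

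This arrangement decides which gene a peak is counted for. Each peak was linked to the gene whose end lay nearest to its midpoint, up to 50 kb away. The widest gene-end peak was linked to the oxidative phosphorylation gene itself in 8 of 8 libraries for 64 of the 86 genes, in 1 to 7 libraries for 11 and in none for 11. Of the 11 genes with no linked peak in any library, Atp5j, Ndufa7, Ndufa11, Ndufb5, Uqcrh and Ndufa4 had a gene-end peak in every mouse that was counted for the neighbour. Atp5d had a peak on its promoter window only, and Cox7b2 and Cox7b had neither. Cox8c and Ndufb4c had no gene-end peak, and no promoter window was matched for them. Atp5h, Ndufaf8 and Ndufa2 had a linked peak in 1 library only and a gene-end peak in all 8.

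In total, 116 to 138 peaks per library were linked to these genes. They made up 0.282% ± 0.0122 (SD, n = 4) of the WT lists and 0.271% ± 0.00854 (SD, n = 4) of the MUT lists, and covered 74943 ± 1125 bp and 74947 ± 6426 bp (SD, n = 4 each). The library values ran from 73870 to 76450 bp in WT and from 69392 to 83150 bp in MUT, so the MUT range enclosed the WT range. The highest and lowest MUT values belonged to MUT 27 and MUT 29, the libraries with the longest list and the narrowest peaks.

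Merged peaks present in at least 2 libraries (consensus regions) numbered 137 for these genes. Of them, 76 lay within 1 kb of a gene end, against 12322 of the 41602 regions linked to any gene. In all 8 libraries, 111 of the 137 (81.0%) were called, against 70.3% of those 41602 and 68.9% of all 50044 consensus regions. Within 1 kb of the gene end it was 75 of 76 (98.7%), with a median region width of 846 bp and a median percentile of 87.2, against 85.1% and 66.4 for all genes. Farther out the regions were less shared and lower ranked, with 21 of 35 called in all libraries between 1 and 10 kb and 15 of 26 between 10 and 50 kb, and median percentiles of 40.6 and 35.2. No region linked to these genes was present in 4 of 4 MUT and 0 of 4 WT libraries (0.583% of all regions were) or the reverse (0.178%).

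Genes with the most linked length owed it to such outer regions. Cox4i2, which had no gene-end peak, had 3316, 3473, 3376 and 3360 bp in WT and 3311, 3539, 3495 and 3171 bp in MUT, in 6 regions that lie 1653.5 to 24394 bp from its end. All of them lie within the RefSeq span of Bcl2l1, the gene of the survival protein BCL-XL, which overlaps Cox4i2 with an end 4816 bp from that of Cox4i2. Ndufv2, a core subunit of complex I, had 2721 to 3084 bp, Atp5mpl of complex V 1788 to 2174 bp and the assembly factor Ndufaf6 1677 to 2113 bp.

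Cox4i1, the broadly expressed form of the largest nuclear-encoded complex IV subunit, had 2251, 3226, 2300 and 2133 bp in WT and 3205, 3581, 3506 and 1999 bp in MUT. The groups overlapped. WT 5 and MUT 26, 27 and 28 were the high libraries. Its start peak of 946 to 1197 bp was counted for Cox4i1 or for the neighbouring Gm27021, 83 bp away, depending on the library, and its gene-end width differed by 0.07 ± 0.07 on the log2 scale (SE).

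The comparison of genotypes asks whether accessibility at these genes differs between NK cells with wild-type and S303/7A HSF1. It was made on linked length, tested with limma on log2(bp + 200) over 14255 genes after scaling of library totals, and on gene-end width, tested with limma over 11067 genes with such a peak in every library. Ndufa9 was higher in linked length in MUT. No other of the 82 genes tested passed an adjusted p of 0.05 for length, and none of 86 did for width. Over all genes, 0.673% passed for length (0.442% higher and 0.231% lower in MUT) and 0.0994% for width. At an unadjusted p under 0.05 there were 6 of 82 genes for length, against 11.2% of all genes, and 8 of 86 for width, against 6.05%.

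Differences over the set as a whole were small, with more genes lower than higher in MUT after the libraries were scaled or centred. The median log2 difference (MUT minus WT) in linked length was -0.04 over the 82 genes and -0.02 over all genes, and 23 of the 82 (28.0%) were above 0, against 42.1% of all genes, 20.8% of the ribosomal protein genes and 11.4% of the proteasome genes. These length differences depend on the scaling of library totals. Linked bp over all genes averaged 1.91e+07 in WT and 1.97e+07 in MUT, so scaling lowered MUT values on average. With no scaling the median difference in length was -0.005 over the 82 genes and 0.013 over all genes. For gene-end width the median was -0.01, against 0.01 for all genes, with 41 of 86 (47.7%) above 0, against 55.6% of all genes. The difference in width was within 0.1 on the log2 scale for 62 of 86 genes (72.1%), against 69.4% of all genes. A typical gene had a standard error of 0.07 for width and 0.08 for length, which limits the size of a difference that could be seen in 4 against 4 mice. The median gene-end width of the set was 766 ± 7.81 bp in WT against 737 ± 29.6 bp in MUT (SD over 4 libraries each), the lowest being 697.5 bp in MUT 29.

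**Figure D2:**
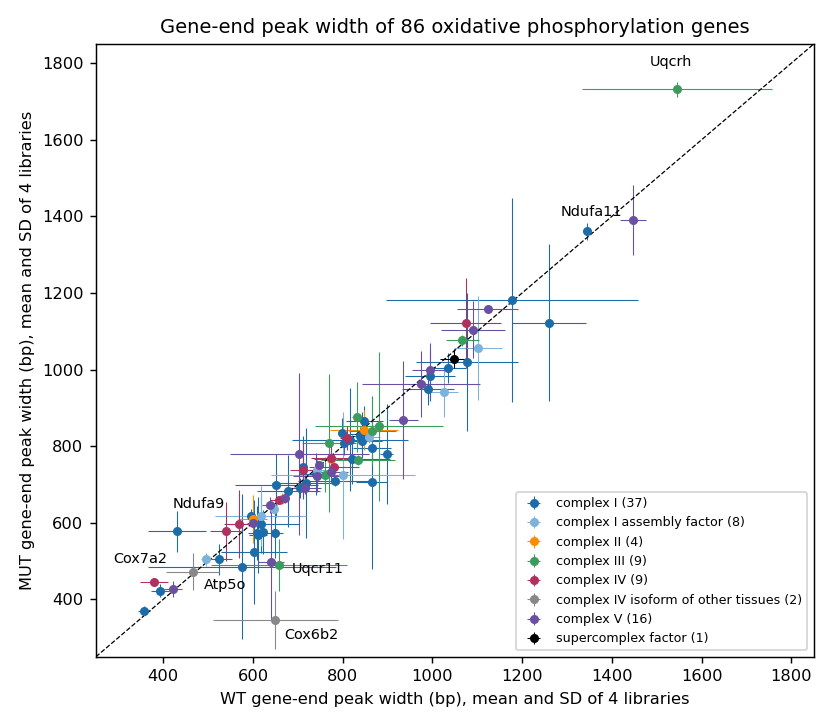
Mean gene-end peak width in WT (horizontal axis, bp) and in MUT (vertical axis, bp), 1 point per gene, with the SD of 4 libraries as bars. Most of the 86 genes lie near the dashed line of equal width, and Ndufa9 lies above it at 430 and 578 bp and Cox6b2 below it at 650 and 345 bp.

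Complex I held the 1 gene that passed the test. Ndufa9 encodes a subunit at the junction of the membrane and matrix arms (chr6:126821863-126849144, minus strand). Its linked length was 852, 864, 1015 and 850 bp in WT and 1417, 1506, 1460 and 1142 bp in MUT. All 4 MUT mice lay above all 4 WT mice, which holds for 4.23% of all genes in this direction. The difference was 0.49 ± 0.07 on the log2 scale (SE), with an adjusted p of 0.0277 by limma. In mean length this was 895 ± 80.1 bp against 1381 ± 164 bp (SD, n = 4).

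The length of Ndufa9 came from 3 regions. The peak over the start was 394, 414, 526 and 387 bp wide in WT and 551, 568, 537 and 655 bp in MUT, again without overlap (1.97% of all genes in this direction for width). This width differed by 0.44 ± 0.13 on the log2 scale, with an adjusted p of 0.642 by limma, so it did not pass alone. A region 10155 bp beyond the far end of the gene was called in all 8 libraries, with 458, 450, 489 and 463 bp in WT and 451, 549, 497 and 487 bp in MUT. The region 29639 bp away (chr6:126792004-126792444) was called at 415, 389 and 426 bp in MUT 26, 27 and 28, and in no WT library and not in MUT 29. Its peaks ranked low, at percentiles of 31.1, 10.2 and 27.9 of their lists. Of the 137 regions, it was the single one called in at least 3 libraries of one genotype and none of the other, a pattern seen in 2.39% of all consensus regions.

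**Figure D3:**
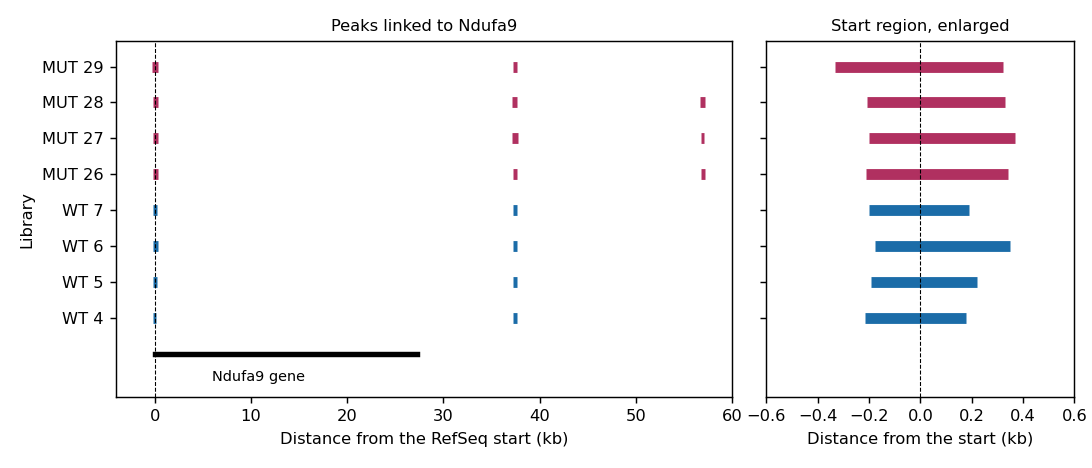
Peaks linked to Ndufa9 in each library (rows), as distance from the RefSeq start along the gene (kb), with the start region enlarged on the right. WT is blue, MUT is red, and the black bar is the gene. The start peak reaches farther into the gene in the MUT libraries and WT 6, and the outermost region appears in MUT 26, 27 and 28.

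The start peak ended 176, 221, 348 and 187 bp after the start in WT and 339, 368, 329 and 320 bp after it in MUT, so WT 6 lay among the MUT values. Its score percentile was 93.0, 90.02, 82.8 and 78.1 in WT and 72.9, 82.8, 74.4 and 67.2 in MUT. The median percentile over all genes was also lower in MUT, with a mean of 79.1 in WT and 77.3 in MUT. Such ranks within lists do not compare genotypes. The call for Ndufa9 ended under 11 of 18 alternatives. With peaks linked only up to 20 kb the difference was 0.19 (adjusted p = 0.431 by limma) and up to 10 kb 0.29 (adjusted p = 0.408). With equal numbers of peaks per list it was 0.42 (adjusted p = 0.142), with the upper 50% of each list 0.20 (adjusted p = 0.503) and with no scaling 0.53 (adjusted p = 0.0556). It also ended when any of WT 4, WT 5, WT 7, MUT 26, MUT 27 or MUT 28 was left out, with adjusted p from 0.0685 to 0.0889.

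The other core subunits of complex I described here showed no difference that passed. Ndufv1, which binds NADH and flavin, had gene-end widths of 819, 776, 792 and 824 bp in WT and 767, 824, 833 and 805 bp in MUT, a log2 difference of 0.02 ± 0.05 (SE). Ndufs8, an iron-sulfur subunit, had 797, 796, 798 and 806 bp and 806, 830, 890 and 815 bp. The MUT libraries of Ndufs8 reached higher but met WT 7 at 806 bp. Ndufs7 ranged from 774 to 885 bp and Ndufs3 from 700 to 902 bp, with overlapping groups. Ndufs1, the largest subunit, had 703 to 716 bp in WT and 689 to 866 bp in MUT at the end it shares with Eef1b2.

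Several complex I genes had lower values in MUT without passing. Ndufc2, a membrane subunit, had 893, 910, 880 and 910 bp in WT and 689, 924, 852 and 653 bp in MUT (-0.21 ± 0.08, adjusted p = 0.814 by limma for width). The WT mice lay close together, while the MUT values were spread and MUT 27 lay above all WT mice. Ndufs4, an accessory subunit whose loss is known to cause Leigh syndrome, had widths of 663, 621, 655 and 657 bp and 569, 567, 656 and 498 bp (-0.18 ± 0.06, adjusted p = 0.757). MUT 28 lay among the WT values. Ndufv3 had 1351, 1307, 1182 and 1200 bp and 1179, 1357, 1089 and 864 bp (-0.17 ± 0.10, adjusted p = 0.901).

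The X-linked subunit Ndufa1 was the second most variable gene in width, with a coefficient of variation of 35.9% over the 8 libraries. Its gene-end peak measured 436, 507, 886 and 474 bp in WT and 347, 761, 453 and 380 bp in MUT. WT 6 and MUT 27 were the high libraries. Ndufb11, the other X-linked complex I subunit, had 935 to 1204 bp in WT and 795 to 1205 bp in MUT.

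Ndufs6 showed how a shared end can move a linked length. Its linked length was 636, 618, 593 and 593 bp in WT and 0, 818, 633 and 200 bp in MUT. Its gene-end peak was nevertheless present in all 8 libraries, at 636, 618, 593 and 593 bp and 563, 616, 633 and 477 bp. In MUT 26 and MUT 29 this peak was counted for Mrpl36, which encodes a mitochondrial ribosomal protein and has an end 21 bp away. The adjusted p of Ndufs6 was 0.613 for length and 0.948 for width by limma.

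None of the 8 complex I assembly factors passed either test. Ndufaf5, a hydroxylase of a complex I subunit, had the lowest p among them for both measures, with widths of 990, 1037, 1008 and 1064 bp in WT and 865, 990, 999 and 908 bp in MUT (-0.12 ± 0.05, adjusted p = 0.820 by limma). MUT 27 met WT 4 at 990 bp. Ndufaf4 was among the steadiest, with 642 to 654 bp in WT and 629 to 646 bp in MUT. Ndufaf7 had a linked length of 0, 580, 545 and 578 bp in WT and 561 to 729 bp in MUT, while its gene-end peak in WT 4 was 768 bp wide and linked elsewhere.

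**Figure D4:**
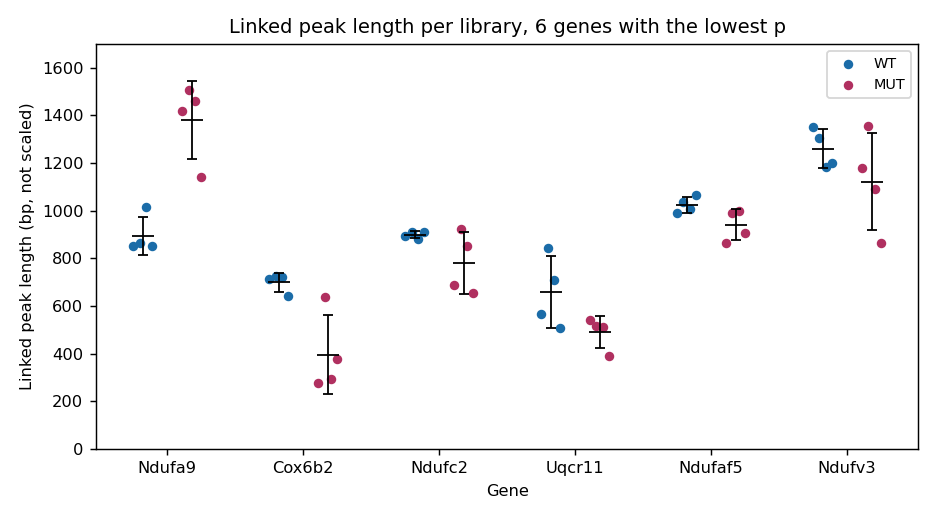
Linked peak length (bp, not scaled) in each library for the 6 genes with the lowest p, WT in blue and MUT in red, with mean and SD of 4 libraries. The groups are apart for Ndufa9, higher in MUT, and for Cox6b2, lower in MUT, and overlap for Ndufc2, Uqcr11, Ndufaf5 and Ndufv3.

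No complex II gene passed either test. Sdha, the flavoprotein, had a gene-end peak of 787, 774, 756 and 778 bp in WT and 769, 777, 776 and 745 bp in MUT. Sdhb had 677, 670, 653 and 662 bp and 666, 680, 659 and 646 bp. The log2 differences were 0.00 ± 0.04 for both genes (SE, rounded), and the groups overlapped for both. The membrane anchors Sdhc and Sdhd ranged from 567 to 703 bp and from 801 to 961 bp, with overlapping groups.

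In complex III the core subunits Uqcrc1 (624 to 967 bp), Uqcrc2 (719 to 920 bp) and Uqcrfs1, the Rieske protein (658 to 782 bp), had overlapping widths, as did Cyc1, the cytochrome c1 gene (560 to 961 bp). Uqcr11 had 567, 845, 710 and 508 bp in WT and 539, 516, 513 and 389 bp in MUT (-0.40 ± 0.17, adjusted p = 0.820 by limma for width). WT 5 and WT 6 were the high libraries, and WT 7 lay below 3 of the MUT mice. Uqcrh had the widest gene-end peak of the set, at 1734, 1361, 1363 and 1723 bp in WT and 1739, 1751, 1733 and 1703 bp in MUT. WT 5 and WT 6 were the low libraries here, and the difference did not pass (0.18 ± 0.09, adjusted p = 0.873). Uqcr10 had 821 to 847 bp in WT and 807 to 1008 bp in MUT.

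In complex IV, Cox7a2 had gene-end widths without overlap, at 394, 400, 389 and 333 bp in WT and 448, 435, 442 and 453 bp in MUT. This holds for 2 of the 86 genes tested and 1.97% of all genes in this direction. The difference of 0.24 ± 0.08 did not pass (adjusted p = 0.705 by limma), and it concerns the small peak near the far end of the gene. On the RefSeq promoter window of Cox7a2 the log2 difference in peak width was -0.06. Cox5b was steady at 679, 652, 633 and 668 bp in WT and 649, 673, 654 and 664 bp in MUT. Cox6a1, Cox6c, Cox7c and Cox8a had overlapping groups, at 681 to 840 bp, 507 to 665 bp, 783 to 857 bp and 745 to 839 bp. Ndufa4, now known as a complex IV subunit, had 726 to 838 bp in WT and 742 to 754 bp in MUT. Cox7a2l, which links complexes III and IV, had 1021 to 1095 bp in WT and 1001 to 1055 bp in MUT.

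Among the isoforms of other tissues, Cox6b2 had the largest difference in width of the set. Its gene-end peak was 711, 725, 722 and 441 bp wide in WT and 276, 437, 291 and 377 bp in MUT. All 4 WT mice lay above all 4 MUT mice, though WT 7 and MUT 27 were nearly equal, which holds for 1.61% of all genes in this direction. The log2 difference was -0.90 ± 0.21 for width and -0.66 ± 0.15 for linked length, with adjusted p of 0.579 and 0.133 by limma. For linked length the WT values were 711, 725, 722 and 641 bp and the MUT values 276, 637, 291 and 377 bp, without overlap (1.52% of all genes in this direction). Without MUT 27, the MUT mouse nearest to the WT values, the length difference passed, at -0.81 with an adjusted p of 0.0289 by limma. It also passed with equal numbers of peaks per list, and under none of the other 16 alternatives. An end of Fam71e2 lies 132 bp away, and which gene the peak belongs to was not tested.

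Complex V held the steadiest gene-end peak. Atp5g1, which encodes a copy of the c-ring subunit, had 753, 743, 753 and 743 bp in WT and 753, 744, 755 and 754 bp in MUT, a coefficient of variation of 0.716%. Atp5b, the catalytic beta subunit, had 590 to 619 bp in WT and 584 to 613 bp in MUT. Atp5a1, the alpha subunit, had 1005 to 1178 bp and 1018 to 1196 bp, and Atp5c1, the gamma subunit, 940 to 1037 bp and 925 to 1088 bp. The spread between mice was larger than the difference between genotypes for each of them.

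Atp5o, the subunit that confers oligomycin sensitivity, had widths of 630, 682, 611 and 638 bp in WT and 422, 724, 417 and 427 bp in MUT. In this gene 3 MUT mice lay below every WT mouse, and MUT 27 lay above them all. The difference was -0.39 ± 0.16 with an adjusted p of 0.820 by limma. Without MUT 27, the MUT mouse that went the other way, it was -0.57 with an adjusted p of 0.0334 by limma. It did not pass under the other 13 alternatives. Atp5md, a membrane subunit that shares its end with Taf5, had 479 to 810 bp in WT and 490 to 959 bp in MUT.

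The set as a whole varied between mice about as much as other genes. The median coefficient of variation of gene-end width over the 8 libraries was 7.11%, against 7.26% for all genes. It was under 5% for 29 of 86 genes (33.7%), against 37.6% of all genes, and over 20% for 8 (9.30%), against 15.0%. The widest peaks after Uqcrh were those of Atp5j (1419 bp on average), Ndufa11 (1353 bp), Ndufv3 (1191 bp) and Ndufv2 (1180 bp). For Ndufv2 the widest peak was 1592 bp in WT 7 and 1533 bp in MUT 26, at percentiles of 68.2 and 68.8. In the other libraries it was 896 to 1202 bp, at percentiles of 94.4 to 96.5, so its mean may join different peaks. Among the narrowest were those of Ndufb10 (364 bp), Cox7a2 (412 bp), Atp5k (425 bp) and Cox7a1 (469 bp).

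No gene of the related lists was called, while 0.673% of all genes were for length and 0.0994% for width. In lists this short, 0 calls is near those shares. Assembly factors of complexes I to V outside the symbol rule, coenzyme Q and cytochrome c genes, regulators of mitochondrial biogenesis and tricarboxylic acid cycle genes held 0 genes past the threshold in either test. A gene-end peak in all 8 libraries was found for 21 of 21 assembly factors of complex IV, 12 of 14 coenzyme Q and cytochrome c genes, 15 of 17 regulators and 16 of 17 cycle genes, and for 9 of 9, 4 of 4, 6 of 6 and 3 of 4 assembly factors of complexes I, II, III and V. The lowest adjusted p by limma in these lists was 0.0660 for length and 0.0593 for width, both among the regulators. The median log2 differences of the ribosomal protein and proteasome genes in length were -0.04 and -0.04, with 0 calls in either list.

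The promoter windows were searched for sequence features that the choice by symbol did not use. The NRF1 letters GCATGCGC were found on either strand in 12 of 78 windows (15.4%), against 6.74% of the 8668 windows of any gene with a peak on them in all libraries and 3.94% of all 17492. They occurred in Uqcr11, Ndufa6, Atp5g2, Ndufa11, Ndufa8, Ndufaf5, Ndufaf4, Sdhb, Atp5k, Cox6a1, Atp5l and Uqcrc1, genes of all 5 complexes. The YY1 letters AAGATGGCG were found in 8 (10.3%), against 4.05% and 2.14%, all within the last 150 bases of the window. These were Ndufs7, Ndufaf8, Ndufs6, Ndufs4, Atp5j, Ndufc1, Atp5j2 and Ndufa9.

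The ETS letters CCGGAAG were about as frequent as in other occupied windows, in 19 of 78 (24.4%), against 22.9% and 12.9%. Both NRF1 and ETS letters stood in the same window for Uqcr11, Sdhb, Atp5k, Cox6a1 and Atp5l, which is 5 of 78 (6.41%), against 1.56% of occupied windows. In Cox6a1, printed above, the NRF1 letters overlap their own reverse complement. At least 1 of the 3 motifs was found in 32 of 78 windows (41.0%), against 30.9% of occupied and 17.6% of all windows, 47.0% of ribosomal protein and 42.4% of proteasome windows.

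The SP/KLF letters GGGCGG were less frequent than in other occupied windows, in 35 of 78 (44.9%), against 72.7%, and near the share of all windows (49.2%). Ribosomal protein and proteasome windows also lay below the occupied windows, at 57.6% each. Median GC content was 58.4%, against 61.3% in occupied windows. Heat shock element letters GAANNTTC, the short form of the HSF1 site, were found in 4 of 78 windows (5.13%), against 6.74% and 8.44%. These were Atp5b, Sdha, Atp5c1 and Cox5a. None of them passed the test of length, which 0.673% of all genes passed. The first 3 did not pass that of width, which 0.0994% of all genes passed, and Cox5a had no gene-end peak for it. In so few genes, 0 calls is near those shares. The E-box CACGTG was found in 6 of 78 windows (7.69%, against 12.4% of occupied windows), the TATA box TATAAA in 8 (10.3%, against 7.81%) and the CRE TGACGTCA in 4 (5.13%, against 4.08%). A match is a description of letters and does not show that a factor binds there, and these shares were not tested.

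**Figure D5:**
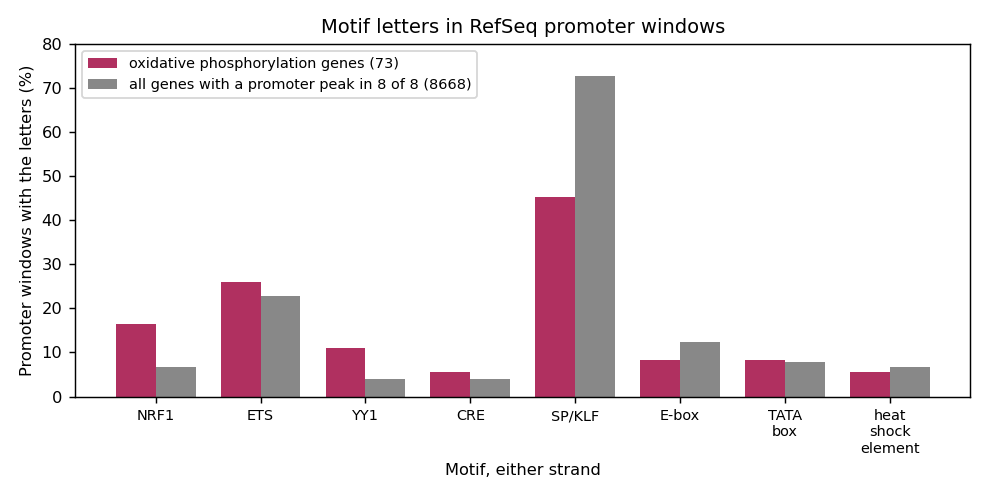
Share of RefSeq promoter windows (%) that hold each motif on either strand, for the 73 oxidative phosphorylation genes and the 8668 genes with a peak on the window in all 8 libraries. NRF1 and YY1 letters are more frequent and SP/KLF letters less frequent in the oxidative phosphorylation genes.

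Peak ranks were also set out by motif, as a description. The median percentile of the gene-end peak was 91.5 for the 19 genes with the NRF1 core and 90.2 for the 52 without, and 90.9 and 89.0 with and without the ETS core. With the YY1 core it was 84.8 in 12 genes, against 91.2 in 59.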

How the data were processed

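ATAC-seq peak lists of splenic NK cells from 4 WT and 4 MUT mice were used, 1 list per library and not pooled. Each line deposited by the authors gives a peak's coordinates, its name and a score with no stated meaning, used here only as a percentile of that list. Per the submitters' processing notes, DiffBind 3.0.12, DESeq2, Bowtie2 2.3.4.1 and Trimmomatic were used with build GRCm38 (mm10). The sources used here do not name the peak caller, its settings or a correction for the transposase offset.

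Genes came from a RefSeq table (GRCm38.p6) without strand, and promoter sequences from the RefSeq promoter table of the same build. Peaks were linked by midpoint to the nearest protein-coding gene end within 50 kb, and such a link says nothing of the gene that a region controls. Linked bp were summed per gene, library totals were scaled to the median library, and genes with a linked peak in at least 2 libraries were tested with limma 3.58.1 (trend) on log2(bp + 200). On this scale the differences of genes with short linked length come out too small. Gene-end width was the widest peak within 1 kb of either end, tested as log2 width after centring library medians, for genes with such a peak in all 8 libraries. Lengths and widths in bp are printed unscaled. P-values were adjusted by Benjamini-Hochberg over all genes, with a threshold of 0.05. Scripts ran in Python 3.11.15 and R 4.3.3 and were tested on simulated data.

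The members, gene lists and tests were chosen with earlier results of these data known. Genes named were those past the threshold, the 6 with the lowest p in each direction of each test, those with a group-only region or no linked peak, the extremes of length, width and percentile (5 each), a fixed set of core subunits, and the isoforms of other tissues. Ndufaf4, Ndufs6, Ndufa2, Atp5g1, Atp5h, Ndufaf8 and others were picked with their values in view, outside this rule. Alternatives changed the pseudocount, scaling, filter, linking distance, peak set, window, merging and libraries. A linking distance of 20 kb was added after seeing the data. Some results are not reported here.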

Additional observations from a re-analysis of the deposited data

Results flagged for a closer look

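In 7 of 56 group values tested, 1 of the 4 libraries lay far from the other 3 of its group, by a rule that flags about 1 in 20 groups by chance. In linked length, Ndufa9 reached 1015 bp in WT 6 against 850 to 864 bp in the other WT mice, and Cox4i1 reached 3226 bp in WT 5 against 2133 to 2300 bp. Ndufaf7 had a linked length of 0 bp in WT 4 against 545 to 580 bp, and Cox6b2 had 641 bp in WT 7 against 711 to 725 bp. In gene-end width, WT 7 was low for Cox7a2, at 333 bp against 389 to 400 bp, and for Cox6b2, at 441 bp against 711 to 725 bp. Atp5o was 724 bp wide in MUT 27 against 417 to 427 bp in the other MUT mice. These values share libraries and, for Cox6b2, the same peak, so they are not independent.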

How the results depend on the processing

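No paired analysis was possible because the replicate numbers of the WT and MUT mice do not overlap. The number of oxidative phosphorylation genes past the threshold for linked length was 1 in the main setting. It was 0 with a linking distance of 10 kb, with 20 kb (chosen after seeing the data), with no scaling and with the upper 50% of each list, and 0 to 1 when 1 mouse was left out. The gene was Ndufa9, which passed in 7 of 18 alternatives (log2 difference 0.19 to 0.56, adjusted p 0.0208 to 0.503 by limma). It did not pass with equal numbers of peaks (0.42, adjusted p = 0.142), without WT 4 (adjusted p = 0.0883), WT 5 (0.0889) or WT 7 (0.0685), or without MUT 26 (0.0858), MUT 27 (0.0691) or MUT 28 (0.0801). Cox6b2 passed with equal numbers of peaks (0.0220) and without MUT 27, with adjusted p from 0.0220 to 0.694 over the alternatives. For gene-end width the number was 0, and 0 to 1 when 1 mouse was left out, the 1 being Atp5o without MUT 27. Over all genes, 22 to 121 genes passed for length (96 in the main setting) and 2 to 27 for width (11). Group-only regions numbered 0, and 1 when a region needed 3 of 4 libraries. Heat shock element letters fell from 5.13% of windows to 1.28% in the last 150 bases. The direction turned for Cox4i1 (-0.018 with the gene of the merged region), Sdhb (-0.011) and Atp5mpl (0.28) in length with the upper 50% of each list, and Cox7a2 (-0.062) in width on the promoter window. None of these 4 passed in either setting, and the causes were not tested. The depth of the libraries is unknown and no interval for it can be given.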
